A study of Mus musculus with 6 samples.

Results

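The imprinted Dlk1-Dio3 microRNA cluster was followed in small RNA libraries of N2A cells, a mouse neuroblastoma line also written Neuro2A. Members were taken by name from a list of 53 cluster hairpins after the arm, copy number and any suffix had been cut from the mouse names in the deposited tables. The tables held 47 of the 53, out of 521 mouse-named hairpins in all, and gave them as 64 separate arms among 1046 entries once identical rows had been counted once. Both arms were listed for 17 hairpins, the 5p arm alone for 8 and the 3p arm alone for 22. The names miR-299b, miR-453, miR-544, miR-668, miR-679 and miR-1188 were not listed.

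Both groups were N2A cells grown in DMEM with fetal bovine serum and antibiotics and given siRNA at 100 nM with a lipid reagent. The 3 si-NC libraries received the control siRNA, and the 3 si-circCpsf6 libraries an siRNA against circCpsf6, a circular RNA named after Cpsf6. Small RNA libraries were made from total RNA with a TruSeq small RNA kit. The labels do not say whether the replicates came from separate cultures, so a p-value here reflects how these libraries vary, and part of that may be technical. Every value below is a read number as the authors normalized it and rounded it to a whole number.

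The Dlk1-Dio3 domain is an imprinted region: Dlk1, Rtl1 and Dio3 are expressed from the paternal chromosome, and the non-coding transcripts Meg3, Rian and Mirg, with the small RNAs embedded in them, from the maternal chromosome. A microRNA hairpin is cut into a 5p and a 3p arm, either of which can be loaded into Argonaute, where the seed (bases 2 to 8) pairs with target mRNAs. The cluster's microRNAs are abundant in brain and placenta. Those antisense to Rtl1 pair perfectly with the Rtl1 mRNA and can direct its cleavage, and the large group near Mirg is known for roles in neurite and dendrite growth.

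By RefSeq positions on GRCm38.p6, the 53 hairpins span 184 kb of chromosome 12, from 109563692 to 109747960. That is a later build than the one named in the submitters' processing notes. Placement in exons and introns of Meg3, Rtl1, Rian and Mirg, or between genes, is by GENCODE on the same assembly. The Rtl1 part (31.7 kb, 12 listed hairpins, 19 arms) begins with mmu-miR-770, in an exon of Meg3, and holds mmu-miR-431, mmu-miR-433, mmu-miR-127, mmu-miR-434 and mmu-miR-136 on the strand opposite an Rtl1 exon. The Rian part is represented by mmu-miR-341 and mmu-miR-370, in Rian introns, with 1 arm each. The Mirg part (38.9 kb, 33 listed hairpins, 43 arms) runs from mmu-miR-379 to mmu-miR-3072. Its first hairpins lie upstream of the annotated Mirg transcript, between annotated genes, while mmu-miR-382, mmu-miR-134, mmu-miR-485, mmu-miR-377, mmu-miR-412, mmu-miR-369, mmu-miR-410 and mmu-miR-3072 lie in Mirg exons.

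RefSeq mature sequences were matched by name for 61 of the 64 arms. They held 60 distinct seeds, so the cluster is not a seed family. The seeds are those of the RefSeq sequences, and 25 of the 64 deposited names carried a suffix that the match left out. Only miR-379-3p and miR-411-3p had a seed in common, and 50 of the 61 arms shared their seed with no other mature mouse miRNA in the table. The first set shows the most abundant arm and the 4 arms of lowest p between the groups, with the seed in capitals.
miR-127-3p: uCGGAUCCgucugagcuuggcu
miR-154-5p: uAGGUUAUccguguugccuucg
miR-337-3p: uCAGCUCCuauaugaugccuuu
miR-381-3p: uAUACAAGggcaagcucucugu
miR-434-5p: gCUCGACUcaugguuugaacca

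All 5 lie on the plus strand of chromosome 12 in GRCm38. In cluster order, miR-337-3p runs from 109585850 to 109585871, miR-127-3p from 109592888 to 109592909, and miR-434-5p from 109594528 to 109594549. Further along, miR-381-3p runs from 109726870 to 109726891 upstream of annotated Mirg, and miR-154-5p from 109738438 to 109738459 in a Mirg intron.

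The next set shows near-copies within the Mirg part, again with the seed in capitals. From miR-381-3p to miR-300-3p, 19 of 22 bases are the same and the differences are A4G, G21U and U22C, counted from 1 at the 5′ end with the base of the first-named arm first. From miR-379-3p to miR-411-3p the differences are U10C and U22C, both outside the seed. From miR-376b-3p to miR-376a-3p they are A4G, C13A and U20G. How reads were divided between such near-copies is not given in the sources used here, so the split between them is uncertain.
miR-300-3p: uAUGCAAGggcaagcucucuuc
miR-379-3p: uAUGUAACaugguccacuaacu
miR-411-3p: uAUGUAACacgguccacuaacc
miR-376b-3p: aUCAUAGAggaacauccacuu
miR-376a-3p: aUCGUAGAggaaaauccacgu

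Some arms held the letters GGUNNAC, searched on the RNA strand alone after the sequences had been read. The match was present in 15 of 61 arms (24.6%), in 11 of the 27 3p arms of the Mirg part (40.7%), and in 20 of 1618 other mature mouse miRNAs (1.24%). Those others still include cluster arms that were not listed. An example with the match is miR-1193-5p, which has the seed of miR-379-5p. The match lay 3′ of the seed in the 3p arms, was the seed itself in miR-299a-5p, miR-379-5p and miR-412-5p, and overlapped the seed's last base in miR-134-5p. It is a description of the letters. In the 3p arms shown here it begins at base 11, and the capitals mark it.
miR-379-3p: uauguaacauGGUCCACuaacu
miR-380-3p: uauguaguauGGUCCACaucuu
miR-411-3p: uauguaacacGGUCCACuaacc
miR-495-3p: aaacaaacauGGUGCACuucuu
miR-543-3p: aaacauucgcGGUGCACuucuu
miR-154-3p: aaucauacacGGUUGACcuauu
miR-323-3p: cacauuacacGGUCGACcucu

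The cluster was a minor component of these libraries. With the replicates given in the order 1, 2, 3 here and below, the sum of its 64 arms was 4333, 1703 and 1744 under si-NC. Under si-circCpsf6 the sum was 4937, 3222 and 5362. As a share of all deposited values this was 0.145%, 0.0592% and 0.0693% against 0.175%, 0.1001% and 0.190%. Si-NC replicate 1 lay among the si-circCpsf6 libraries, above their replicate 2, while the other si-NC libraries lay below all of them. The mean was 2593 ± 1507 (SD, n = 3) with si-NC and 4507 ± 1133 with si-circCpsf6, a 1.74-fold ratio of means. Within the si-NC group, replicate 1 was 2.54 times replicate 2 and 2.48 times replicate 3. The ratio of means was 2.62 without si-NC replicate 1, and 1.48 and 1.49 without replicates 2 and 3. In bulk cells, fewer cells expressing a microRNA and less of it per cell cannot be told apart.

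**Figure D1:**
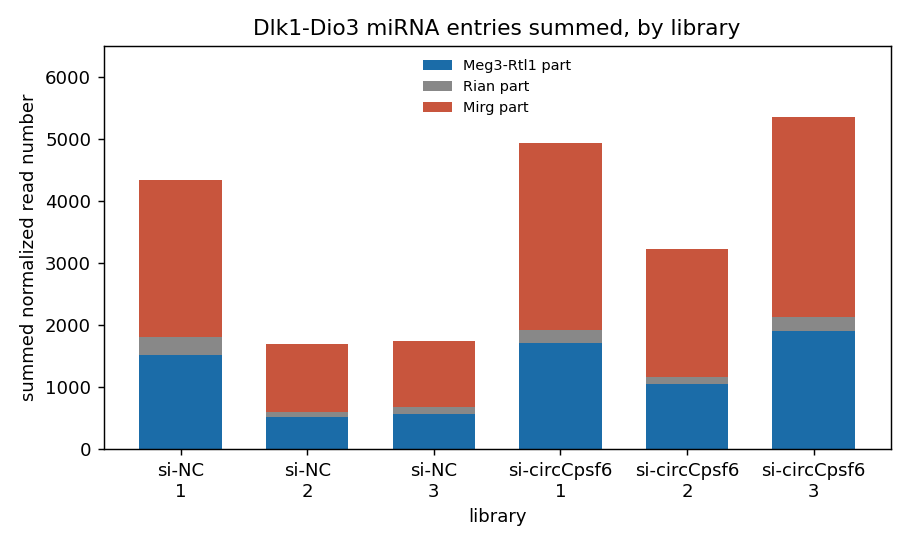
Summed normalized read number of the Dlk1-Dio3 arms in each of the 6 libraries, stacked by the Rtl1 part (drawn with its Meg3 hairpins, blue), the Rian part (grey) and the Mirg part (red). Si-NC replicate 1, at 4333, stands between si-circCpsf6 replicate 2, at 3222, and replicate 1, at 4937, and the other si-NC libraries are at 1703 and 1744.

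The shares of the Mirg and Rtl1 parts were steadier than the level of the cluster. The Mirg part supplied 58.2% to 65.0% of the cluster's sum in each library and the Rtl1 part 30.4% to 35.5%. The share of the Rian part ran from 3.51% in si-circCpsf6 replicate 2 to 6.81% in si-NC replicate 1. A single arm, miR-127-3p, supplied 15.7% to 18.4%, and the 10 most abundant arms 59.5% over all libraries. By mean over the libraries miR-127-3p ranked 237 among all entries. Summed values of the Mirg part were 2522, 1107 and 1066 with si-NC and 3013, 2053 and 3226 with si-circCpsf6 (1.77-fold). The Rtl1 part stood at 1516, 517 and 570 against 1707, 1056 and 1901 (1.79-fold). The Rian part stood at 295, 79 and 108 against 217, 113 and 235 (1.17-fold), and its ratio was 0.935 without si-NC replicate 2, so its direction rested on that library.

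No member passed the test between the groups. By limma on log2(value + 1), 0 of the 61 tested arms had an adjusted p under 0.05, as did 0 (0%) of all 916 tested entries. The lowest adjusted p by limma was 0.279 among the arms, for miR-154-5p, and 0.0923 among all entries. At an unadjusted p under 0.05, 4 of 61 arms were higher with si-circCpsf6, beside 3.28% of all entries, and 0 were lower, beside 2.95%. Groups did not overlap for 8 of 61 arms with the si-circCpsf6 values above, beside 6.77% of all entries, and for 0 with them below, beside 4.91%. Both counts of higher arms include miR-154-5p and miR-337-3p, listed at 0 in every si-NC library. These reached the mean of at least 1 needed for testing through the si-circCpsf6 libraries alone. The count of 4 became 19 without si-NC replicate 1, beside 4.91% of all entries. It became 2 without si-circCpsf6 replicate 3, where the share over all entries was not counted.

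The direction of the differences was nearly uniform. The log2 change was above 0 for 55 of 61 tested arms and below 0 for 5, while miR-431-3p stood at exactly 0. Of all 916 tested entries, 510 were above 0. The arms above 0 include miR-770-5p, miR-337-3p, miR-3544-5p, miR-758-3p, miR-376a-3p and miR-154-5p. These were listed at 0 in every si-NC library, so their change could only be above 0 and their direction is no result. MiR-493-5p, listed at 0 in every si-circCpsf6 library, could only be below 0. Among entries with a mean of 10 or more, it was above 0 for 41 of 41 arms and for 357 of 623 entries in all. The median log2 change was 1.13 over the arms (quartiles 0.69 and 1.66) and 0.086 over all entries. By part the median was 1.15 for 19 Rtl1 arms, 1.00 for the pair of Rian arms and 1.05 for 40 Mirg arms. These medians include arms listed at 0 in some libraries; over the 29 arms above 0 in every library the median was 0.86, beside 0.038 for all such entries. The arms share libraries and are not independent replicates of the treatment.

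**Figure D2:**
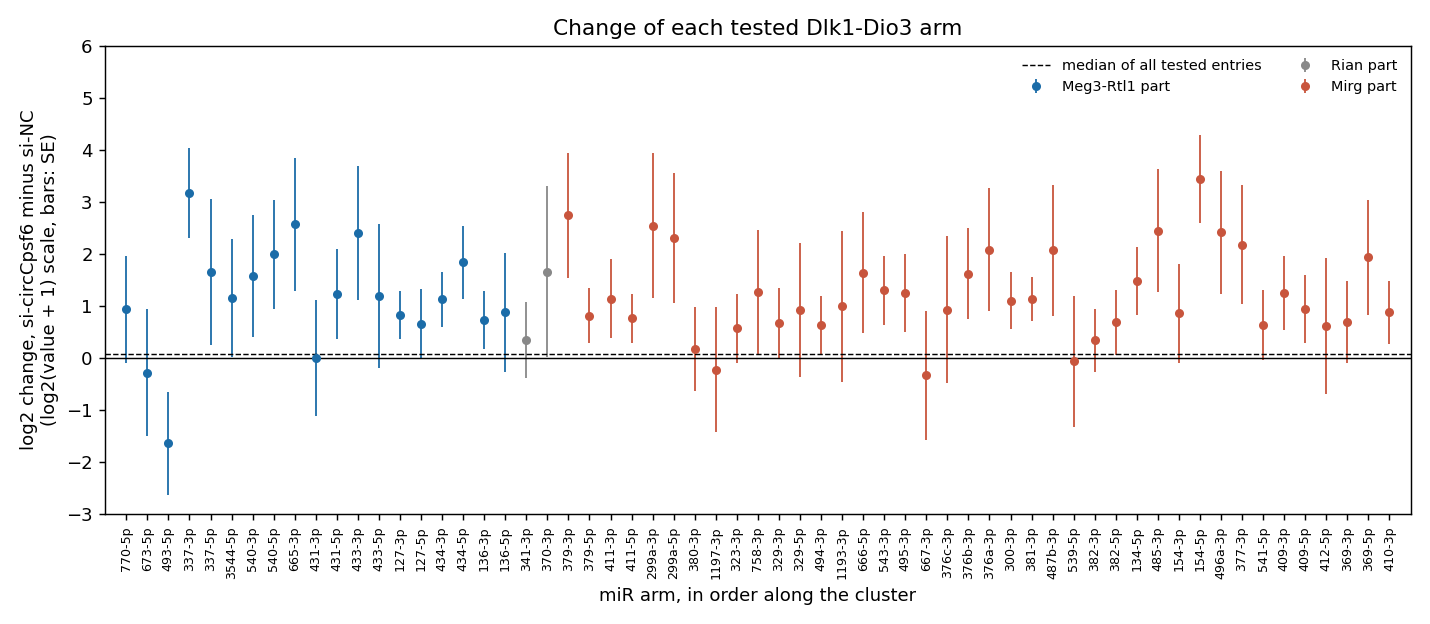
Log2 change (si-circCpsf6 minus si-NC, on the log2(value + 1) scale) of each of the 61 tested arms in order along the cluster, coloured by part, with bars of 1 SE; the dashed line is the median of all tested entries, 0.086. Points above 0 run through the whole cluster, 55 of 61, and the widest bars belong to arms listed at 0 in some libraries. Arms listed at 0 in every si-NC library could only lie above 0.

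In the Rtl1 part the arms antisense to Rtl1 carried most of the reads. MiR-127-3p stood at 796, 269 and 293 with si-NC and at 801, 522 and 839 with si-circCpsf6. Si-NC replicate 1 was close to the highest si-circCpsf6 libraries and the groups overlapped; the means were 452.7 ± 297.6 and 720.7 ± 173, with a log2 change of 0.83 ± 0.47 (SE) and a limma adjusted p of 0.735. Its partner arm miR-127-5p, at 43, 16 and 23 against 35, 43 and 44, overlapped in the same way.

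MiR-434 held the one arm antisense to Rtl1 whose groups did not overlap. MiR-434-5p stood at 105, 35 and 19 with si-NC and at 147, 108 and 215 with si-circCpsf6. All si-circCpsf6 values lay above all si-NC values, by 3 units at the closest, between si-NC replicate 1 and si-circCpsf6 replicate 2. The log2 change was 1.84 ± 0.70 (SE), with limma's p at 0.0288 before and 0.586 after adjustment. MiR-434-3p stood at 139, 63 and 54 against 174, 125 and 233, and its groups overlapped because si-NC replicate 1 exceeded si-circCpsf6 replicate 2.

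MiR-136-3p stood at 193, 71 and 89 with si-NC and at 226, 104 and 242 with si-circCpsf6. MiR-136-5p stood at 22, 5 and 73 against 54, 11 and 95, and in both groups replicate 2 was lowest. Groups overlapped for both arms, and the log2 change of miR-136-5p turned from 0.88 to -0.05 when si-NC replicate 2 was left out.

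MiR-665-3p and miR-433-3p were among the 5 largest log2 changes of arms with a mean of 10 or more. MiR-665-3p stood at 35, 6 and 0 with si-NC and at 44, 29 and 38 with si-circCpsf6. MiR-433-3p stood at 32, 7 and 0 against 58, 27 and 23. For both, si-NC replicate 1 lay inside the si-circCpsf6 range, and the 0 in si-NC replicate 3 entered the fitted log2 changes of 2.57 and 2.41. Those changes were 1.24 and 1.07 without si-NC replicate 3, and 3.82 and 3.59 without si-NC replicate 1. MiR-337-3p was listed at 0 in all 3 si-NC libraries and at 12, 6 and 7 with si-circCpsf6. These are low values, so no ratio is given; limma's p was 0.00584 before and 0.364 after adjustment. MiR-493-5p was the opposite case, at 5, 4 and 0 with si-NC and listed at 0 in every si-circCpsf6 library.

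The pair of Rian arms is GC-rich, and its groups overlapped. MiR-341-3p stood at 141, 39 and 108 with si-NC and at 138, 44 and 200 with si-circCpsf6. MiR-370-3p was highest in si-NC replicate 1 and stood at 40 and 0 in the other si-NC libraries, against 79, 69 and 35 with si-circCpsf6. The mean of miR-370-3p was lower with si-circCpsf6, 61.0 ± 23.1 beside 64.7 ± 79.9, whereas its log2 change was 1.66 because of the 0 in si-NC replicate 3. The log2 change of miR-341-3p, 0.34, turned to -0.21 without si-NC replicate 2 and to -0.11 without si-circCpsf6 replicate 3.

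In the Mirg part, miR-381-3p had the lowest p among the abundant arms. It stood at 165, 101 and 85 with si-NC and at 292, 201 and 264 with si-circCpsf6. All si-circCpsf6 values lay above all si-NC values. The means were 117 ± 42.3 and 252 ± 46.6 (SD, n = 3), a 2.16-fold ratio, with a log2 change of 1.14 ± 0.42 (SE) and limma's p at 0.0264 before and 0.576 after adjustment. Its near-copy miR-300-3p stood at 277, 133 and 69 against 310, 225 and 367. Those groups overlapped at si-NC replicate 1 and si-circCpsf6 replicate 2.

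A further 4 arms of the Mirg part with a mean of 10 or more also had groups that did not overlap. MiR-134-5p, known for limiting dendritic spine growth, stood at 89, 26 and 23 with si-NC and at 104, 93 and 128 with si-circCpsf6, with a limma adjusted p of 0.735. MiR-543-3p stood at 51, 18 and 46 against 92, 52 and 141. For both, si-NC replicate 1 was within 4 units of the lowest si-circCpsf6 value. MiR-379-3p stood at 23, 7 and 0 against 41, 29 and 45. MiR-485-3p stood at 18, 6 and 0 against 22, 20 and 44. In each of these arms si-NC replicate 1 was the highest library of its group. MiR-299a-3p, another of the 5 largest log2 changes, overlapped, at 55, 22 and 0 against 73, 43 and 78.

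MiR-154-5p was listed at 0 in all 3 si-NC libraries and at 9, 9 and 12 with si-circCpsf6, with limma's p at 0.00335 before and 0.279 after adjustment. The smallest value above 0 of any member was 19 in si-NC replicate 3 and between 3 and 6 in the other libraries. In si-NC replicate 3, values of this size were thus not recorded for any arm of the cluster. Over all entries the smallest value above 0 in that library was 2, and the reason for the difference was not tested. With miR-337-3p, miR-154-5p made up the 2 arms, of 9 listed at 0 throughout si-NC, that were above 0 in every si-circCpsf6 library. Another 6 of the 9 were above 0 in 1 library.

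The remaining abundant arms of the Mirg part overlapped between the groups. MiR-541-5p, second in mean level, stood at 410, 223 and 58 with si-NC and at 340, 271 and 219 with si-circCpsf6. Its highest and its lowest libraries were both si-NC, and its log2 change turned from 0.64 to -0.15 without si-NC replicate 3. MiR-379-5p stood at 271, 123 and 73 against 262, 203 and 252. MiR-411-5p stood at 66 and 81 in si-NC replicates 2 and 3, against 176, 117 and 176. Si-NC replicate 1 was the highest of all libraries for miR-379-5p, and for miR-411-5p it fell between the lowest and highest si-circCpsf6 values. MiR-410-3p stood at 118, 47 and 124 against 189, 86 and 268. MiR-495-3p stood at 88, 16 and 54 against 139, 55 and 141. In these last arms replicate 2 was the lowest library of each group.

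**Figure D3:**
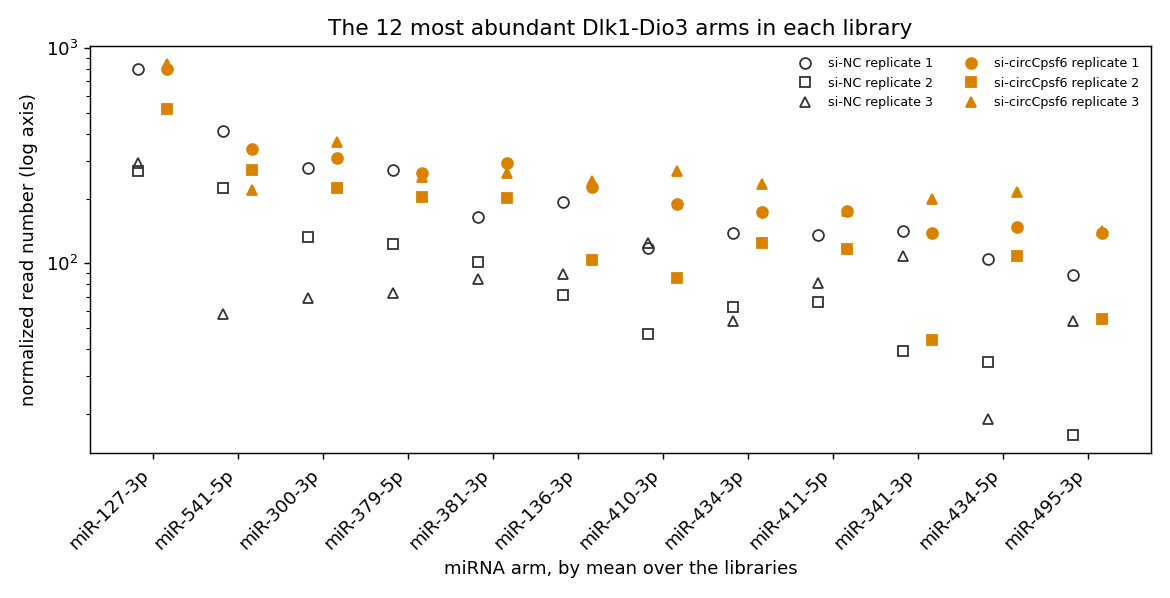
Normalized read number (log axis) of the 12 most abundant arms in each library, ordered by mean; open symbols are si-NC and filled symbols si-circCpsf6, with replicates 1, 2 and 3 as circles, squares and triangles. The open circle, si-NC replicate 1, lies near the filled symbols in most arms, while the open squares and triangles lie lower; miR-381-3p and miR-434-5p are the arms shown here whose groups do not overlap.

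The arms moved together between libraries of the same group as well as between groups. Among the 41 arms with a mean of 10 or more, 41 were lower in si-NC replicate 2 than in si-NC replicate 1, beside 48.2% of the 623 entries at that level. The median log2 difference was -1.37 over the arms and 0 over all entries. Between the si-circCpsf6 libraries, 39 of 41 arms were lower in replicate 2 than in replicate 1, with a median of -0.58, beside 49.9% of entries and a median of 0. Si-circCpsf6 replicate 3 was above replicate 2 by a median of 0.84 over the arms and 0 over all entries. Si-NC replicate 3 was below si-NC replicate 1 by a median of 1.41 for the arms, with 35 of 41 lower, where the median of all entries was also lower, at -0.32.

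Si-NC replicate 1 was never the lowest library for any of the 41 arms, and it was the highest for 6. The lowest value was in si-NC replicate 2 for 19 arms and in si-NC replicate 3 for 23, ties counted. The highest was in si-circCpsf6 replicate 3 for 26 arms and in si-circCpsf6 replicate 1 for 12. Without si-NC replicate 1, 19 of 61 arms were higher at an unadjusted p under 0.05, beside 4.91% of all entries, and 0 passed adjustment by limma. The median log2 change was then 1.56, beside 0.18 for all entries. Without si-NC replicate 3, 3 of 61 arms were higher at an unadjusted p under 0.05 by limma, beside 5.46%. In that setting 1 of 61 arms was lower, and the share of all entries that were lower was not counted. The median was 0.83, beside -0.04 for all entries.

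**Figure D4:**
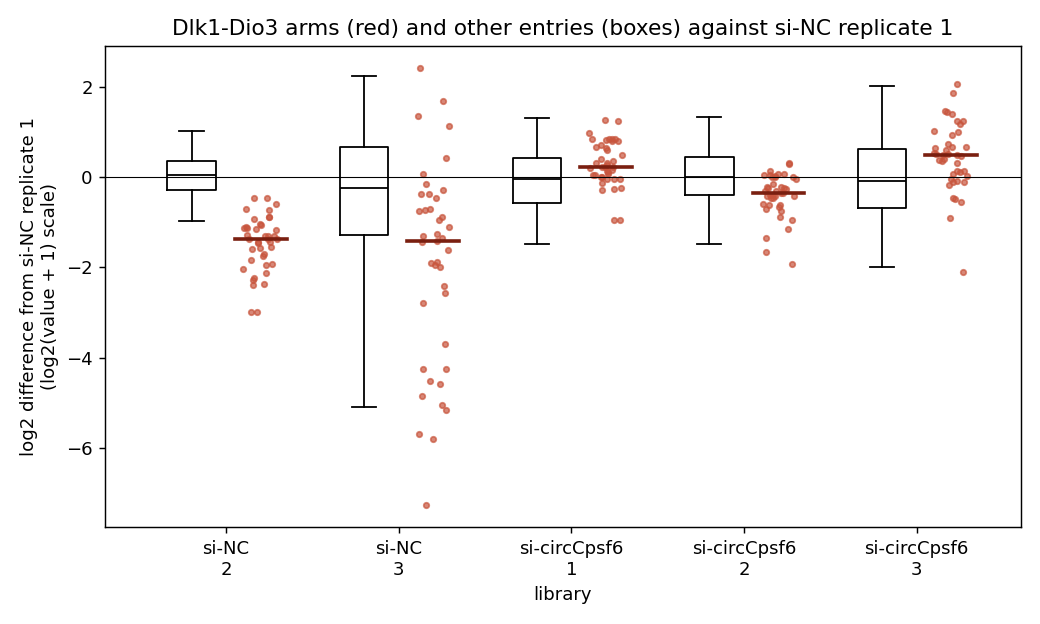
Log2 difference of each library from si-NC replicate 1 (log2(value + 1) scale) for entries with a mean of 10 or more; red points are the 41 Dlk1-Dio3 arms with their median as a bar, and boxes show all other entries as median, quartiles and 5th to 95th percentiles. The arms lie below the other entries in si-NC replicate 2 and above them in si-circCpsf6 replicate 3, and si-NC replicate 3 has the widest spread in both sets.

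Si-NC replicate 3 stood apart in the deposited values. It listed 46.7% of the 1046 entries at 0, where the other libraries listed 18.8% to 31.5%, and 34 of the 64 arms at 0, where the other si-NC libraries listed 10 and 20 and the si-circCpsf6 libraries 8, 9 and 12. Its composition also differed by base content. Across 39 arms, GC content was set against the library's log2 deviation from the mean of the libraries. The r was -0.46 in si-NC replicate 3 and 0.61 in si-NC replicate 1. Across the other mouse miRNAs these were -0.35 and 0.24. For the arms, r was 0.329 in si-NC replicate 2, and 0.224, 0.365 and -0.173 in si-circCpsf6 replicates 1, 2 and 3. All deviations are from the mean of the same libraries, so these r values are not independent. The arms share each library and its depth, so these are descriptions. Arms with GC under 40% made up 33.8% of the cluster in si-NC replicate 3 and 12.4% to 22.3% in the other libraries.

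Single arms, chosen after their values were seen, went both ways. MiR-369-3p, with the lowest GC content of the cluster (23.8%), stood at 37, 16 and 96 with si-NC and at 67, 36 and 104 with si-circCpsf6. MiR-370-3p, among the arms with the highest (68.2%), had its only 0 in si-NC replicate 3. Against that order, the GC-rich miR-341-3p (66.7%) stood at 108 in si-NC replicate 3, and the GC-poor miR-379-3p and miR-377-3p (36.4%) were at 0 there. Once the GC trend of each library was removed, the median log2 change was 1.15 over 59 arms and 0.10 over all mouse-named entries with a known sequence. Those are 79.9% of the 677 mouse-named entries tested, under the 80% needed, so the correction is void as a check on all entries.

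**Figure D5:**
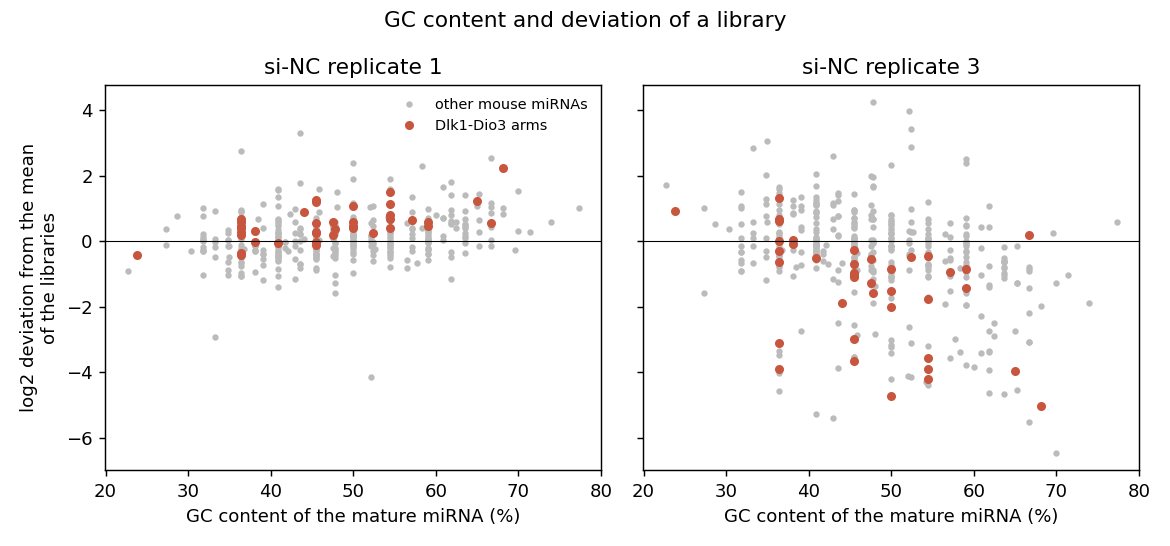
GC content of the mature miRNA (percent) against the log2 deviation of 1 library from the mean of the libraries, for si-NC replicate 1 (left) and si-NC replicate 3 (right); red points are 39 Dlk1-Dio3 arms and grey points the other mouse miRNAs. In the arms r was 0.61 on the left and -0.46 on the right. Both panels use the mean of the same libraries, so they are not independent.

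Arm choice did not pass the test between the groups. Of the 17 hairpins listed with both arms, 11 had more 3p than 5p and 6 more 5p than 3p. For the ratio of 3p to 5p, 0 of 202 hairpins had an adjusted p under 0.05 by limma (lowest 0.998). At an unadjusted p under 0.05 there was 1 member, mmu-miR-154, of 17, beside 2.97% of all hairpins. Its 3p arm stood at 10, 4 and 23 with si-NC and at 17, 10 and 39 with si-circCpsf6, while its 5p arm was listed at 0 in every si-NC library.

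Strongly one-sided hairpins were one-sided in all libraries. The 3p share of mmu-miR-127 was 92.4% to 95.8%, while mmu-miR-541 gave its 5p arm in all but 3 units of 1 library. The 3p share of mmu-miR-434 was 57.0%, 64.3% and 74.0% with si-NC and 54.2%, 53.7% and 52.0% with si-circCpsf6. The limma adjusted p of the ratio was 0.998. The 3p share of mmu-miR-379 was 7.82%, 5.39% and 0% with si-NC and 13.5%, 12.5% and 15.2% with si-circCpsf6, with an adjusted p of 0.998 by limma. The 0% is from si-NC replicate 3, where the 5p arm stood at 73 and no member had a value above 0 and under 19. Over all entries the smallest value above 0 in that library was 2, and why the 3p arm was at 0 was not tested. Groups did not overlap in 3 of the 12 member hairpins with a 3p share in every library (mmu-miR-154, mmu-miR-379 and mmu-miR-434), beside 7.65% of all such hairpins. For mmu-miR-136 it was 89.8%, 93.4% and 54.9% against 80.7%, 90.4% and 71.8%, lowest in replicate 3 of each group.

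In the authors' deposited table, 4 of the 64 arms had a p under 0.05, beside 3.7% of its 1080 rows. In the authors' deposited table these were miR-154-5p at 0.0121, miR-381-3p at 0.0205, miR-379-3p at 0.0327 and miR-337-3p at 0.041. The same 4 arms are among the 8 whose groups do not overlap. Both readings use the same library values of each arm, so the match is not independent support.

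Of 5 other microRNAs of imprinted loci that were looked up, 3 were listed. MiR-335-5p, from an intron of Mest, stood at 34772, 32101 and 55526 with si-NC and at 44883, 49586 and 42447 with si-circCpsf6. MiR-298-5p, from the Gnas domain, stood at 25351, 16434 and 6739 against 21105, 21040 and 14465. MiR-296-3p, also from the Gnas domain, stood at 13783, 11455 and 1733 against 6861, 11365 and 4704. In si-NC replicate 3, miR-335-5p had its highest value and both Gnas microRNAs their lowest. By limma 0 of the 3 passed adjustment (lowest adjusted p 0.924). MiR-335-5p and miR-298-5p exceeded the sum of the cluster in every library, whereas miR-296-3p was below it in replicate 3 of each group.

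Marker microRNAs were read beside the cluster's sums. All 8 neuronal or neuroendocrine markers were listed, with sums of 153484 to 264871 under si-NC and 247848 to 394276 under si-circCpsf6. MiR-7a-5p made up most of that sum, at 88548 to 238295 and 198948 to 364458, and the other markers went in both directions, with a log2 change of 0.79 for miR-138-5p and of -0.45 for miR-9-5p. None of the 8 passed adjustment by limma (lowest adjusted p 0.72). The liver marker miR-122-5p was at 0 in 5 of 6 libraries, and 2 of 4 blood markers were listed, with sums of 7 to 46. The blood markers miR-142a and miR-223 were not listed. The endothelial marker miR-126a-3p ranged from 2869 to 4301 over the libraries, and 2 of 3 muscle markers from 43 to 132 in sum. The 5 epithelial markers of the miR-200 family summed to at least 151 in each si-NC library and to at most 62 in each si-circCpsf6 library. By limma none of these 5 passed adjustment (lowest adjusted p 0.364, for miR-429-3p), and most were at 0 in some libraries. All 4 smooth muscle and fibroblast markers (miR-143, miR-145a, miR-199a and miR-214) were listed, summing to 105495, 77926 and 66409 with si-NC and to 96611, 84794 and 107228 with si-circCpsf6. Like the cluster, that sum was lowest in si-NC replicates 2 and 3 and highest in si-circCpsf6 replicate 3. That order is the order of miR-143-3p, which made up most of the sum, at 89316, 62471 and 57213 against 77180, 64854 and 89458. The order differed for miR-199a-5p and miR-214-3p, which were higher in si-NC replicate 2 than in replicate 1 and highest in si-circCpsf6 replicate 2, and miR-145a-5p was highest in si-circCpsf6 replicate 1. The part of these markers in the cluster's values was not tested.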

How the data were processed

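Small RNA was sequenced in 3 si-NC and 3 si-circCpsf6 libraries of N2A cells. The values, deposited by the authors as normalized read numbers rounded to whole numbers, were treated as a score and not as raw counts; totals were 2516481 to 3219618 per library, and sequencing depth is unknown. The build is mm9 per the submitters' processing notes; aligner and normalization: not given in the sources used here. Each p-value deposited by the authors is from a t test, per the file headers. Rows with the same name and values were used once, and rows with identical values above 0 in at least 3 libraries were merged, leaving 1046 of 1080 rows. Tests used limma 3.58.1 (R 4.3.3; trended variance) on log2(value + 1), for entries with a mean of at least 1, with Benjamini-Hochberg adjustment over all 916; the fit was tested on simulated data. Arm ratios were fitted likewise for hairpins with a summed mean of at least 10. Tables and figures used Python 3.11.15.

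The members and lists were chosen with earlier results of these data known. Arms were named if the adjusted p was under 0.05, if among the 12 highest means, if among the 5 largest changes in each direction or without overlap of groups (mean of 10 or more), or if an arm of the 8 most abundant hairpins; no arm with a mean of 10 or more had a negative change. MiR-337-3p, miR-154-5p, miR-493-5p, miR-369-3p, miR-370-3p and the sequences shown were chosen after values were seen. Alternatives were the pseudocount, the filter, rescaling, robust variance, merging, a replicate block and leaving out each library. Mature sequences and hairpin positions come from RefSeq on GRCm38.p6, with positions of miR-666 and miR-544 from GENCODE on the same assembly. The genes, exons and introns around the hairpins are also from GENCODE. MiR-487b-3p, miR-376c-3p and miR-485-5p had no sequence entry. Suffixes such as R+1 on deposited names are left out of the text.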

Additional observations from a re-analysis of the deposited data

How the results depend on the processing

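Under 18 alternatives to the test of each entry, 0 member arms passed adjustment by limma. Over all entries the number passing was 0 to 4 when 1 library was left out, and it was 4 without si-NC replicate 3. The number of arms higher at an unadjusted p under 0.05, which was 4, became 7 with a pseudocount of 5, 2 with values under 20 set to 20, and 2 to 19 when 1 library was left out, with 2 without si-circCpsf6 replicate 3 and 19 without si-NC replicate 1. The share of all entries was counted for the main fit (3.28%) and without si-NC replicate 1 (4.91%) or 3 (5.46%). The other counts of arms in this section have no such share beside them. The median log2 change of 1.13 was 0.81 to 1.56 when 1 library was left out and 0.41 with values under 20 set to 20; the cause was not tested, except that this last setting removes differences between low values. Hairpins whose arm ratio passed were 0 to 1, the 1 being outside the cluster. Of 391 values of named arms under alternatives, 387 kept their direction and side of the threshold. Log2 changes that turned were those of miR-136-5p (-0.0494 without si-NC replicate 2; -0.0494 to 1.76 over the libraries left out), miR-341-3p (-0.205 without si-NC replicate 2 and -0.108 without si-circCpsf6 replicate 3; -0.205 to 0.972) and miR-541-5p (-0.151 without si-NC replicate 3; -0.151 to 1.25). Same-numbered libraries had correlations of deviations of 0.047, 0.479 and 0.400 for replicates 1, 2 and 3. No label says that the numbers pair libraries, so the main fit was left unpaired, and these values do not settle it. With the replicate block, 8 arms were higher at an unadjusted p under 0.05 by limma and 0 passed adjustment. The GC trend, the floor of 20 and the restriction to entries above 0 in every library were chosen after seeing the data. Without raw counts, the error of single low values cannot be given.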
